A study of Mus musculus with 6 samples.

Results

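The genes described here are 10 members of the integrated stress response, the program run by the transcription factor ATF4, in mouse bone marrow-derived macrophages (BMDMs) with and without zoledronic acid (ZA). They are Atf4 itself, Ddit3, Trib3, Chac1, Asns, Psat1, Phgdh, Shmt2, Mthfd2 and Atf5. Each was taken as the row of the expression table whose symbol equals its name, which gave 10 of 35310 rows, 1 for each gene. The BMDMs came from femoral marrow of C57BL/6 mice and were grown for 7 days with 10 ng/ml macrophage colony-stimulating factor (M-CSF), which turns marrow cells into macrophages. Ctrl is 3 libraries of untreated BMDMs, and ZA is 3 libraries of BMDMs taken 12 h after ZA, a nitrogen-containing bisphosphonate used against bone resorption, was added. The sources used here name no transgene for these libraries. They do not give the ZA concentration of these cultures or whether libraries share a donor or a pool of donors. The study's wild-type mice of this strain were females obtained at 6 weeks of age. Because the donors of the libraries are not known, the p-values set each group difference against the spread between libraries, which may be technical. RNA was read as 150-base pairs and deposited as FPKM, in which the fragments of a gene are divided by its length and by the total of the library.

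In the integrated stress response, kinases that sense amino acid shortage, unfolded protein in the endoplasmic reticulum (ER), heme shortage, mitochondrial stress or viral RNA put a phosphate on the translation factor eIF2. Protein synthesis then slows, while the Atf4 mRNA is translated better, so that much of the control of ATF4 lies at the level of protein and cannot be seen in an mRNA table. ATF4 binds composite C/EBP-ATF sites and switches on amino acid synthesis, amino acid transport, tRNA charging and, under lasting stress, genes that promote cell death. In many mammalian cells, mitochondrial inhibitors are strong inducers of this program, with the serine and one-carbon enzymes among its leading targets. The study addressed what ZA does to the mitochondria of macrophages, and the comparison below asks whether mRNAs of this program differ between BMDMs with and without ZA.

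None of the 8 members that could be tested passed the test, and the group means of most lay close together. Atf4 mRNA had 69.9 ± 1.93 FPKM in Ctrl BMDMs against 72.8 ± 0.310 FPKM after ZA (SD, n = 3). It was the single member whose groups did not overlap, where 18.1% of all genes tested did not, 11.4% with ZA above. Asns, which makes asparagine, was highest in 1 ZA library and close to Ctrl in the other two. Chac1, which breaks down glutathione, was lower in 2 of 3 ZA libraries, at a level of only a few fragments per library. With limma on log2(FPKM + 1), 0 of the 8 members had an adjusted p-value under 0.05, while 0.368% of the 9791 genes tested did, 0.204% higher and 0.163% lower in ZA.

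Library totals, inferred from the FPKM values, were between 41230600 and 42155808 fragments, so that depth was nearly equal. All 10 macrophage markers, among them Adgre1, Csf1r, Cd68, Lyz2 and Spi1, were expressed, with a summed level between 23966 and 27860 FPKM in Ctrl and between 24860 and 28368 FPKM in ZA, of which Lyz2 made up most. All ZA libraries were above all Ctrl libraries for 4 of these 10 markers, as for 11.4% of all genes tested. These were Adgre1 (531.8 ± 5.93 and 580.5 ± 13.4 FPKM), Csf1r (772.2 ± 4.93 and 834.9 ± 11.9 FPKM), Cd68 (1332 ± 12.4 and 1348 ± 4.31 FPKM) and Cd14 (208.2 ± 1.97 and 226.1 ± 14.7 FPKM). For Cd14 the groups nearly touched, with Ctrl 2 at 210.058 FPKM and ZA 1 at 210.064 FPKM. Summed levels of the 10 neutrophil and progenitor markers were lower in range, between 35.4 and 50.9 FPKM in Ctrl and between 31.5 and 37.1 FPKM in ZA, with Ly6g at 0 in all libraries and 4 of the 10 genes lower in every ZA library than in every Ctrl library, as were 6.76% of all genes tested. The 6 stromal markers summed to between 18.5 and 32.8 FPKM in Ctrl and between 16.8 and 23.8 FPKM in ZA, and the 7 T and B cell markers in the table to between 2.61 and 3.25 FPKM and between 2.17 and 2.42 FPKM. Dendritic cell markers, 5 genes, stood between 0.392 and 0.538 FPKM and between 0.440 and 0.471 FPKM, and 8 erythroid and mast cell markers between 1.23 and 3.67 FPKM and between 1.72 and 2.76 FPKM. No marker gene among those tested passed the adjusted threshold of 0.05, and the part of other cells in the values below was not tested. In such bulk libraries, fewer cells of a type and less RNA per cell cannot be told apart.

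Promoters of 3 of the 10 members held the core letters of an ATF4 site close to the start. In RefSeq windows of GRCm38.p6 from 250 bases before to 50 bases after each start, all 10 members were found, with 12 windows. The letters TGATGNAA, the core of the C/EBP-ATF site, were searched on both strands and found in Chac1, Asns and Trib3, and in 4.51% of 27025 genes. The site of Chac1 lies at positions -193 to -186 from the start, that of Asns at -23 to -16, and that of Trib3 at 14 to 21, inside the transcribed part. The ER stress response element (ERSE) was found in 0 of the 12 windows, against 0.119% of all 32851 windows, so that no window holds both. A match is a description of letters in this window, and sites outside it were not searched. The upstream stretches of Chac1 (chr2:119351009-119351096, plus strand) and Asns (chr6:7693210-7693272, minus strand) are shown because these are the members with the lowest and the highest ratio of mean FPKM between ZA and Ctrl, with the match in capitals, which for Chac1 is the reverse complement of the letters searched.

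Chac1: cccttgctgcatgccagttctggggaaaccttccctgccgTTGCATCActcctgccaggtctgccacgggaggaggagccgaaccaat

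Asns: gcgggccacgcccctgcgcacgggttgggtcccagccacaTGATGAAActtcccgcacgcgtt

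Levels per gene length ordered the members in the same way in all 6 libraries. From the highest to the lowest FPKM, the order was Atf4, Atf5, Shmt2, Ddit3, Mthfd2, Psat1, Asns, Phgdh, Trib3 and Chac1. No pair of neighbours in this order overlapped over the 6 libraries, and the mean FPKM of Atf4 in Ctrl was 415.4-fold that of Chac1. By mean FPKM, Atf4 stood above 92.0% of the genes tested, Atf5 above 75.0%, Shmt2 above 60.5% and Ddit3 above 44.4%. Mthfd2, Psat1, Asns and Phgdh stood lower, above 24.0%, 19.9%, 11.1% and 1.84%. Trib3 and Chac1 had a mean FPKM under 1, the minimum for the test, and are given with values and a fit without that minimum. These BMDMs thus held much mRNA of the regulators ATF4 and ATF5 and little of the stress targets TRIB3 and CHAC1, with and without ZA.

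**Figure D1:**
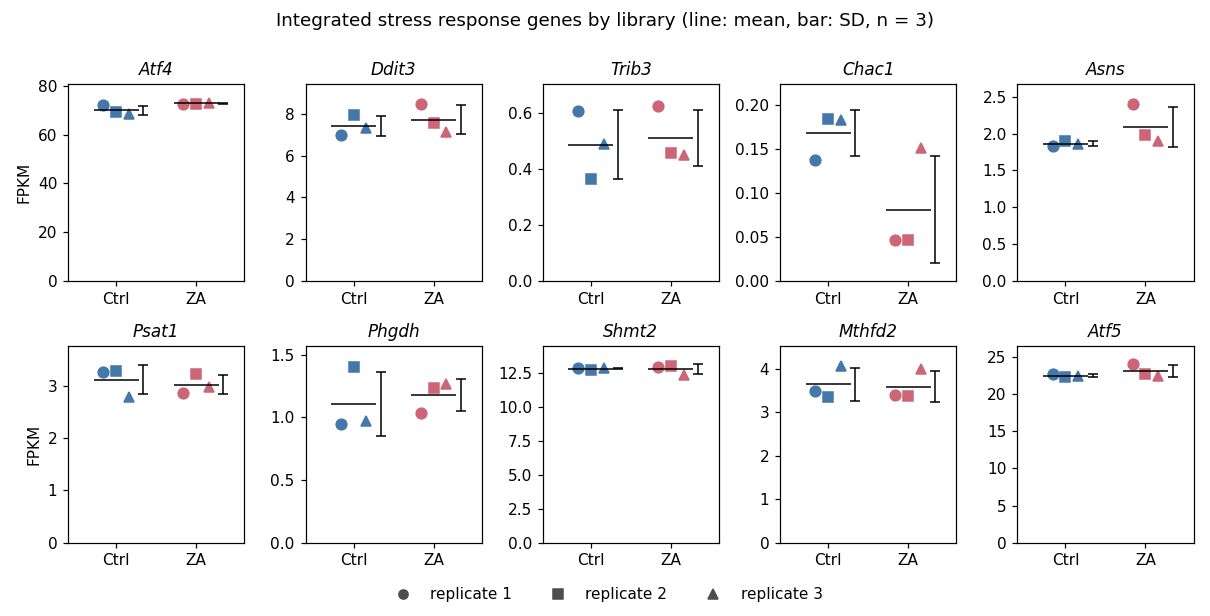
FPKM (vertical axis, from 0, one scale per gene) of each of the 10 members in the 3 Ctrl and 3 ZA libraries, where each point is a library, its shape the replicate number, the line the group mean and the bar the SD. Points of the groups mix in every panel but that of Atf4, whose ZA libraries lie between 72.5 and 73.1 FPKM against 68.2 to 72.0 FPKM in Ctrl. Groups did not overlap for 18.1% of all genes tested. Chac1 sits near 0.05 FPKM in 2 ZA libraries.

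Atf4, the transcription factor at the head of the program, was read at 72.0, 69.4 and 68.2 FPKM in Ctrl 1, 2 and 3 and at 72.5, 72.7 and 73.1 FPKM in ZA 1, 2 and 3. These values rest on 4929 to 5326 fragments per library. All ZA libraries were above all Ctrl libraries, but Ctrl 1 and ZA 1 nearly touched. The difference was 0.06 on the log2(FPKM + 1) scale (SE 0.026, 1.04-fold, 95% interval 0.998 to 1.08), with an unadjusted p of 0.0580 and an adjusted p of 0.423 from limma. Groups of 18.1% of all genes tested did not overlap, 11.4% with ZA above as for Atf4. Without Ctrl 1 the difference was 0.08, with an adjusted p of 0.389.

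Atf5, a relative of ATF4 that takes part in the mitochondrial unfolded protein response, was read at 22.7, 22.4 and 22.5 FPKM in Ctrl and at 24.0, 22.7 and 22.5 FPKM in ZA. ZA 1 was the highest library, and ZA 3 lay within the narrow range of Ctrl. The difference on the log2(FPKM + 1) scale was 0.03 (SE 0.032, 1.02-fold, interval 0.973 to 1.08, adjusted p = 0.714 from limma), and it was 0.0056 without ZA 1.

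Ddit3 encodes CHOP, the factor that joins ATF4 in lasting stress and promotes cell death. Its levels were 7.0, 7.97 and 7.32 FPKM in Ctrl and 8.49, 7.56 and 7.12 FPKM in ZA, from 741 to 890 fragments. The groups overlapped, with ZA 1 on top and Ctrl 1 at the bottom. Ddit3 differed by 0.05 on the log2(FPKM + 1) scale (SE 0.065, 1.03-fold, interval 0.932 to 1.15, adjusted p = 0.805 from limma), and by -0.01 without ZA 1.

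Trib3, a pseudokinase that ATF4 and CHOP induce and that in turn restrains ATF4, was at 0.608, 0.364 and 0.490 FPKM in Ctrl and at 0.627, 0.457 and 0.451 FPKM in ZA. Its fragments numbered 52, 31 and 42 in Ctrl and 53, 39 and 39 in ZA. High and low libraries occurred in both groups. In a fit without the minimum, limma's voom on the recovered fragments gave a 1.06-fold ratio, with an interval from 0.692 to 1.62 and an adjusted p of 0.943.

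Chac1, an enzyme that degrades glutathione and is among the most inducible CHOP and ATF4 targets, was at 0.138, 0.184 and 0.183 FPKM in Ctrl and at 0.0464, 0.0460 and 0.151 FPKM in ZA. The Ctrl libraries held 9, 12 and 12 fragments of it and the ZA libraries 3, 3 and 10, so that ZA 1 and ZA 2 were at the 3 fragments (0.0459 FPKM) taken as the smallest amount this depth can show. ZA 3 lay inside the range of Ctrl. Summed over each group, 33 fragments in Ctrl (95% counting interval 22.7 to 46.3) stood against 16 in ZA (9.15 to 26.0), intervals that cover counting error only. Chac1 was not part of the main test, and without the minimum voom gave 0.443-fold (interval 0.207 to 0.951), with an unadjusted p of 0.0387 and an adjusted p of 0.510. On log2(FPKM + 1) without the minimum the difference was -0.11 (adjusted p = 0.531 from limma), a scale that compresses such low levels.

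Asns encodes asparagine synthetase, a long-used reporter of amino acid shortage with the promoter match printed above. Its levels were 1.83, 1.90 and 1.86 FPKM in Ctrl and 2.40, 1.98 and 1.89 FPKM in ZA, from 260, 269 and 264 fragments and 337, 281 and 272 fragments. ZA 1 stood at 128.8% of the Ctrl mean, ZA 2 at 106.5% and ZA 3 at 101.7%, and ZA 3 was below Ctrl 2. Asns differed by 0.11 on the log2(FPKM + 1) scale (SE 0.066, 1.08-fold, interval 0.971 to 1.20, adjusted p = 0.541 from limma), the largest difference among the 8 members tested. Without ZA 1 it was 0.04, with an adjusted p of 0.812. On the fragments, where low levels are not compressed, voom without the minimum gave 1.12-fold (0.940 to 1.33).

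Phgdh and Psat1 catalyze the opening steps of serine synthesis. Phgdh was read at 0.949, 1.40 and 0.972 FPKM in Ctrl and at 1.04, 1.23 and 1.27 FPKM in ZA, with the highest library in Ctrl. Its difference on the log2(FPKM + 1) scale was 0.05 (SE 0.090, 1.04-fold, interval 0.900 to 1.20, adjusted p = 0.850 from limma). On the fragments, voom without the minimum gave 1.08-fold for Phgdh (0.789 to 1.48). Of the 2334 stretches of 150 bases in the GENCODE transcripts of Phgdh, 402 (17.2%) also occur in the gene models Gm7901 and Gm9347. Its level therefore depends on how the counting dealt with shared reads, which is not given in the sources used here. No other member shared a stretch of that length with another gene. Psat1 was at 3.27, 3.29 and 2.80 FPKM in Ctrl and at 2.86, 3.22 and 2.99 FPKM in ZA. All ZA values of Psat1 lay inside the range of Ctrl, and its difference on the log2(FPKM + 1) scale was -0.03 (SE 0.062, 0.978-fold, interval 0.887 to 1.08, adjusted p = 0.874 from limma).

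Shmt2 and Mthfd2 are mitochondrial enzymes that turn serine into glycine and carry its carbon as folate units. Shmt2 was read at 12.8, 12.8 and 12.9 FPKM in Ctrl and at 13.0, 13.0 and 12.4 FPKM in ZA. Its group means were 12.8 ± 0.0602 and 12.8 ± 0.354 FPKM (SD, n = 3), with a ratio of 0.998 on the log2(FPKM + 1) scale (interval 0.949 to 1.05, adjusted p = 0.978 from limma). Mthfd2 was at 3.49, 3.34 and 4.07 FPKM in Ctrl and at 3.39, 3.37 and 3.99 FPKM in ZA. The library numbered 3 was the highest in both groups, and the group means differed by less than the libraries within either group. For Mthfd2 the ratio on the log2(FPKM + 1) scale was 0.990 (interval 0.880 to 1.11, adjusted p = 0.957 from limma). On the fragments, voom without the minimum gave 0.988-fold for Mthfd2 (0.840 to 1.16).

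**Figure D2:**
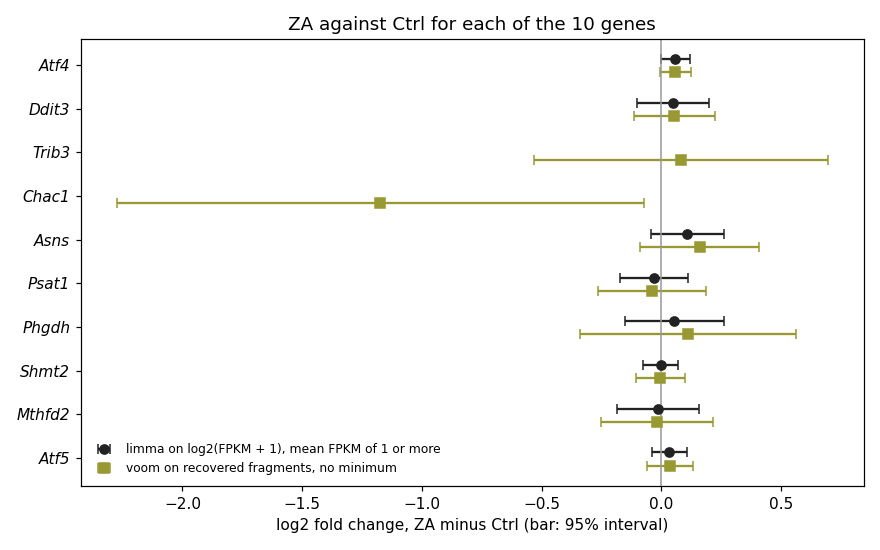
Difference between ZA and Ctrl on the log2 scale (horizontal axis) for each of the 10 members (vertical axis), with bars for 95% intervals, from limma on log2(FPKM + 1) (black circles, 8 members) and from voom on the recovered fragments without a minimum level (olive squares, 10 members). The interval of Chac1 by voom lies below 0 before adjustment, and all other intervals include 0.

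Over the 8 members tested, 5 differences were above 0 and 3 below, where 56.9% of all genes tested were above 0. Their median was 0.04 on the log2 scale, beside 0.01 over all genes, and they ran from -0.03 (Psat1) to 0.11 (Asns). At an unadjusted p under 0.05 there were 0 of 8 members and 12.4% of all genes. For each gene by itself, the upper end of the interval was 1.08-fold for Atf4 and 1.20-fold for Asns and Phgdh on the log2(FPKM + 1) scale, and 1.33-fold for Asns and 1.48-fold for Phgdh by voom. All members together took 9884, 9761 and 9664 fragments in Ctrl and 10106, 10001 and 10075 fragments in ZA, and Atf4 made up more of these sums than all other members.

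ZA 1 was the library where the members were most often highest. It held the highest level of Ddit3, Trib3, Asns and Atf5, that is, 4 of the 10 members and 3 of the 8 tested (37.5%), while it was the highest library for 20.2% of all genes tested. Relative to the Ctrl mean, ZA 1 stood at 114.3% for Ddit3, 128.6% for Trib3, 128.8% for Asns and 106.7% for Atf5. Trib3, however, was at 124.8% in Ctrl 1. ZA 1 was the highest library for neither Atf4 nor any of the 4 serine and one-carbon members. Ctrl 2 was the highest library for 3 of the 10 members, Chac1, Psat1 and Phgdh, while it was so for 11.7% of all genes. Without ZA 1 the median difference of the 8 members was 0.01.

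Spread between libraries was above counting error for some members and below it for others. The coefficient of variation (CV) of Asns was 1.85% in Ctrl, below the 6.15% that counting alone gives, and 12.9% in ZA, above the 5.81% of counting. Atf4 showed the opposite, with 2.77% in Ctrl and 0.426% in ZA beside 1.41% and 1.38% from counting. With 3 libraries a group, a CV below counting error says little about the true spread. Shmt2 varied by 0.469% and 2.77%, beside 2.85% from counting in both groups. For Chac1 the CV was 15.7% in Ctrl and 74.7% in ZA, beside 30.2% and 43.3% from counting. Phgdh in Ctrl (23.0%) and Mthfd2 in both groups (10.5% and 9.77%) varied more than counting gives (10.8%, 5.28% and 5.32%).

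**Figure D3:**
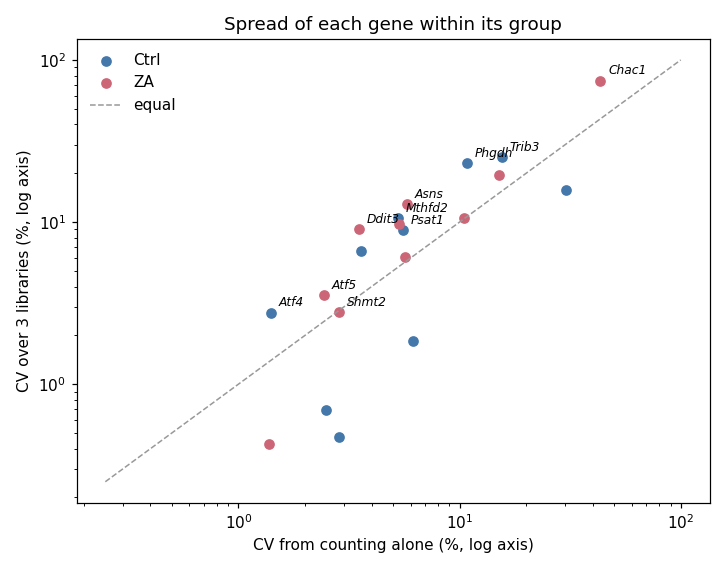
CV over the 3 libraries of a group (vertical log axis, %) against the CV that counting fragments alone gives (horizontal log axis, %) for each of the 10 members in Ctrl (blue) and ZA (red), with the dashed line where both are equal and each name beside the group with the larger spread. Chac1 in ZA stands highest at 74.7%, and Atf4 in ZA lowest at 0.426%.

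None of the genes that sense stress or control eIF2 passed the test. In a list of 18 such genes, all tested, 0 passed the adjusted threshold, beside 0.368% of all genes. That share applies to the lists below too. Of the 18, 1 was higher at an unadjusted p under 0.05 (7.51% of all genes were), and the median log2 difference was 0.02. The 3 with the largest statistic were Eif2b2 and Eif2b5, subunits of the exchange factor that recharges eIF2, and Dele1, which carries mitochondrial stress to the kinase HRI. Eif2b2 had 17.4 ± 0.210 FPKM in Ctrl and 18.4 ± 0.617 FPKM in ZA (adjusted p = 0.398 from limma). Dele1 had 9.22 ± 0.330 and 9.94 ± 0.584 FPKM (adjusted p = 0.448). Eif2b5 had 16.6 ± 0.162 and 17.3 ± 0.420 FPKM (adjusted p = 0.458). In these 3 of the 18 genes all ZA libraries were above all Ctrl libraries, as in 11.4% of all genes. The eIF2 kinases, named for their role after their values were seen, were all expressed. Mean levels were 32.8 and 33.4 FPKM for HRI (Eif2ak1), 12.5 and 13.6 FPKM for PKR (Eif2ak2), 8.87 and 8.81 FPKM for PERK (Eif2ak3) and 5.28 and 5.13 FPKM for GCN2 (Eif2ak4) in Ctrl and ZA, with adjusted p-values between 0.636 and 0.943.

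Partner factors and other stress targets held differences of both signs. Of 15 tested, 2 were higher and 3 lower at an unadjusted p under 0.05 (7.51% and 4.85% of all genes were), 0 passed the adjusted threshold, and the median was -0.01. Bbc3, which encodes the death-promoting PUMA, was at 5.23 ± 0.223 FPKM in Ctrl and 5.92 ± 0.209 FPKM in ZA (log2 difference 0.15, SE 0.043, adjusted p = 0.219 from limma). Atf3, a stress factor downstream of ATF4, was at 202.3 ± 3.83 and 188.1 ± 7.12 FPKM (-0.11, SE 0.031, adjusted p = 0.235). Gadd45a, a growth arrest gene, was at 76.6 ± 0.938 and 66.2 ± 6.80 FPKM (-0.21, SE 0.062, adjusted p = 0.235), with ZA 1 at 73.7, ZA 2 at 64.6 and ZA 3 at 60.3 FPKM. Groups did not overlap for any of these 3 genes (11.4% of all genes had ZA above and 6.76% ZA below), and without ZA 1 Gadd45a passed, at -0.29 with an adjusted p of 0.0320. Ddit4, an inhibitor of mTOR named here after its value was seen, had the lowest difference of the list, at 2.69 ± 0.427 and 2.05 ± 0.373 FPKM (-0.28, adjusted p = 0.354).

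Beyond the members, the serine, glycine and one-carbon list held 10 tested enzymes with 2 higher and 0 lower at an unadjusted p under 0.05 (7.51% and 4.85% of all genes), 0 past the adjusted threshold and a median of -0.02. Aldh1l1, which oxidizes formyl-folate in the cytosol, was at 5.34, 5.54 and 5.64 FPKM in Ctrl and 6.0, 6.17 and 6.77 FPKM in ZA (0.17, SE 0.048, adjusted p = 0.221 from limma). Psph, the closing enzyme of serine synthesis after Phgdh and Psat1, was at 1.25, 1.17 and 1.23 FPKM and 1.69, 1.32 and 1.34 FPKM (0.14, SE 0.067, adjusted p = 0.451). With an unadjusted p of 0.0692 from limma, Psph was not among the 2 counted as higher. In both genes all ZA libraries were above all Ctrl libraries, as in 11.4% of all genes. ZA 1 was the highest library for Psph. It was so for 2 of the 10 tested enzymes of this list (20%), beside 20.2% of all genes.

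Among 12 other amino acid enzymes, 1 was higher and 1 lower at an unadjusted p under 0.05, beside 7.51% and 4.85% of all genes, with 0 past the adjusted threshold and a median of 0.0048. Pck2, the mitochondrial PEP carboxykinase, was at 7.95 ± 0.403 and 8.84 ± 0.387 FPKM (0.14, adjusted p = 0.292 from limma), Got1, an aspartate aminotransferase, at 40.9 ± 1.15 and 38.5 ± 0.442 FPKM (-0.08, adjusted p = 0.300), and Glul, glutamine synthetase, at 132.2 ± 4.98 and 126.0 ± 3.74 FPKM (-0.07, adjusted p = 0.457). Of 10 amino acid transporters tested, 0 passed in either direction even before adjustment, beside 12.4% of all genes, with a median of -0.02. Those with the largest statistic were Slc38a2 (33.3 and 35.0 FPKM, adjusted p = 0.443), Slc1a5 (11.2 and 11.6 FPKM, 0.493) and Slc7a2 (1.52 and 1.37 FPKM, 0.582), given as means of Ctrl and ZA. All 20 cytosolic aminoacyl-tRNA synthetases were tested, with 0 higher and 1 lower at an unadjusted p under 0.05 (the same shares of all genes apply), 0 past the adjusted threshold and a median of 0.01. Lars had 12.3 and 11.6 FPKM (adjusted p = 0.397), Hars 23.7 and 22.8 FPKM (0.519) and Kars 24.1 and 24.9 FPKM (0.538).

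ER chaperones and genes of the other unfolded protein response arms, which ER stress induces, were mostly at lower levels in ZA, with 0 past the adjusted threshold. Of 18 tested, 11 were lower and 0 higher at an unadjusted p under 0.05, where 4.85% of all genes were lower, and in 7 all ZA libraries were below all Ctrl libraries, as in 6.76% of all genes. Their median log2 difference was -0.09, beside 0.01 over all genes. Pdia4, a disulfide isomerase, was at 38.5, 38.2 and 39.0 FPKM in Ctrl and 34.2, 34.3 and 35.3 FPKM in ZA (-0.15, SE 0.026, adjusted p = 0.0668 from limma). Calr, calreticulin, was at 510.2, 507.1 and 514.5 FPKM and 452.6, 466.9 and 486.0 FPKM (-0.12, SE 0.027, adjusted p = 0.112). Hyou1, a chaperone of the HSP110 kind, was at 24.0, 25.1 and 25.7 FPKM and 22.7, 21.4 and 22.8 FPKM (-0.16, SE 0.036, adjusted p = 0.134). Voom on the recovered fragments put these 3 genes past the threshold, with adjusted p-values of 0.0247, 0.0330 and 0.0421. Of the mitochondrial unfolded protein response, 9 genes were tested, with 0 past an unadjusted p of 0.05, beside 12.4% of all genes, and a median of 0.0003. Clpx, a mitochondrial protease subunit, had 10.1 and 10.9 FPKM (adjusted p = 0.446), its partner Clpp 11.9 and 11.1 FPKM (0.483), and the chaperone Hspa9 53.5 and 51.5 FPKM (0.519).

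**Figure D4:**
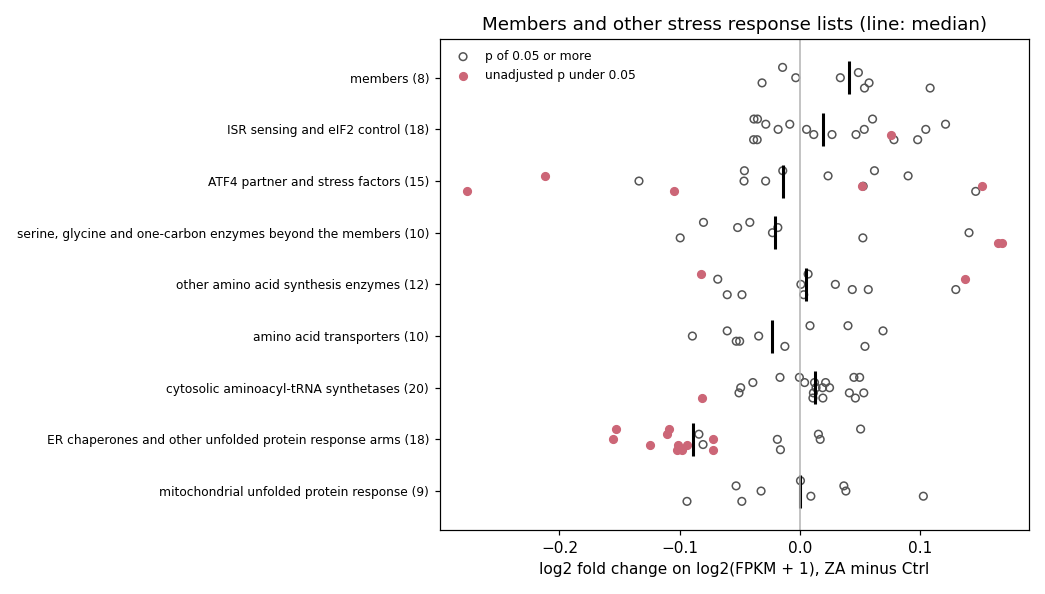
Difference between ZA and Ctrl on the log2(FPKM + 1) scale (horizontal axis) for each tested gene of the 10 members and of 8 further stress response lists (vertical axis, number tested in brackets), with a black line at each list's median and red points for an unadjusted p under 0.05. The 8 tested members lie between -0.03 and 0.11 without a red point, and the list of ER chaperones has 11 red points, all below 0.

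Across the 6 libraries, no other member followed Atf4 closely. Pearson's r with Atf4 on log2(FPKM + 1) was 0.41 for Atf5, 0.36 for Asns, 0.20 for Psat1, 0.08 for Phgdh, -0.04 for Ddit3, -0.15 for Shmt2 and -0.27 for Mthfd2, and 2764 or more of the genes tested had a higher r than each of them. At their low levels, Trib3 had an r of 0.37 and Chac1 of -0.68. The genes most like Atf4 were Rexo2 (r = 0.986), Clpx (r = 0.985) and Mcm3ap (r = 0.985), the highest of 9791 over 6 libraries that all these genes share. These values are descriptions, since 6 points with 2 groups among them fix r only loosely. Rexo2, a mitochondrial oligoribonuclease, was at 43.0, 41.4 and 40.3 FPKM in Ctrl and 43.6, 44.4 and 44.0 FPKM in ZA, with Ctrl 1 the highest of Ctrl as for Atf4. Its difference was 0.08 on the log2 scale (adjusted p = 0.333 from limma).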

How the data were processed

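FPKM values of 6 libraries were deposited by the authors as one table, with no further scaling. The submitters' processing notes name mm9. The aligner, the counting program, the annotation, the strand setting and the handling of shared reads are not given in the sources used here, so overlapping genes cannot be told apart. The labels name 2 library kits (VAHTS and SMARTER).

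In 35434 rows, 11 held all separators. The rest run together, and cuts were placed where the digits form valid numbers and every value comes out as whole fragments. Where a row allowed several cuts, the one kept had 3 powers of 10 in likelihood over the next. Library totals and gene lengths were not supplied but inferred from the same values. This restored 35310 rows, the 11 intact ones identically. The 124 rows left out hold no gene of the lists. Fragments were recovered in the same step.

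The groups were compared by limma (version 3.58.1, R 4.3.3; lmFit and eBayes with trend, two-sided) on log2 of FPKM plus 1. The 9791 genes whose mean FPKM reached 1 were fitted together, and p-values were adjusted by Benjamini-Hochberg. Fold changes of low genes are understated. Steps were tested on simulated data. Python 3.11.15 was used for restoring and figures. Members and lists were chosen with earlier results of these data known. Named are all members, of each stress list the 3 tested genes with the largest absolute moderated statistic, and the 3 most correlated with Atf4. One result under this rule is not reported here. Other names are marked as chosen afterwards. Libraries of a group were not duplicates (chi-square per gene 3.52 to 9.73).

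Alternatives were another pseudocount, other minima, median centring, quantile normalization, no trend, the replicate block, voom, rows with a single cut, and leaving out each library. Voom without a minimum was added after the data had been seen.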

Additional observations from a re-analysis of the deposited data

How the results depend on the processing

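Under all 16 alternatives, 0 of the members tested in each passed an adjusted p of 0.05 in either direction. Not every alternative tested all members. A minimum of 5 left only Atf4, Ddit3, Shmt2 and Atf5, and rows with a single cut left only Ddit3, Asns, Psat1 and Phgdh. Trib3 and Chac1 were tested in 2 settings each. For the 8 members tested, the difference of Atf4 ran from 0.04 to 0.08, of Asns from 0.04 to 0.16, of Phgdh from 0.0005 to 0.15, of Atf5 from 0.0056 to 0.05 and of Psat1 from -0.09 to -0.0006 on the log2 scale. With 1 library left out, Ddit3 ran from -0.014 (without ZA 1, a change of sign) to 0.099, Mthfd2 from -0.077 to 0.052 (above 0 without Ctrl 3, ZA 1 or ZA 2), and Shmt2 from -0.016 to 0.018 (above 0 without ZA 3), with adjusted p-values of 0.676 or more. At an unadjusted p under 0.05 there were 2 members without a minimum level (Atf4 and Chac1), 1 by voom without a minimum (Chac1) and, over the fits that leave out 1 library each, 0 to 1 (Atf4 without Ctrl 1).

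The number of all genes past the threshold, 36, was 1 without a minimum, 20 with quantile normalization, 1 without a trend, 133 by voom, 77 by voom without a minimum and 0 of 2858 for rows with a single cut. It ran from 0 (without ZA 2) to 25 (without ZA 1) with 1 library left out. The split, 20 higher and 16 lower, was 10 higher and 18 lower after median centring. Of the other stress lists, 0 genes passed in the main comparison, 1 with a minimum of 5 (Pdia4, adjusted p = 0.0482), 3 by voom (Pdia4, Calr and Hyou1), 1 by voom without a minimum (Calr) and 0 to 1 with 1 library left out (Gadd45a, without ZA 1). The causes were not tested.

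Same-numbered libraries had correlations of their deviations of 0.284, 0.0391 and 0.28 across genes, and the labels say nothing of a shared origin, so the numbers were not taken as pairs. With the replicate block, 78 genes and 0 members passed, and the lowest adjusted p among the members was 0.360 (Atf4). Depth limits Chac1 and Trib3, whose 3 to 53 fragments per library cannot show modest differences.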
